A study of Mus musculus with 2 samples.

Results

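The exon junction complex genes described here are Eif4a3, Magoh, Magohb, Rbm8a, Casc3, Rnps1, Acin1, Sap18 and Pnn, a list of 9 taken for membership in the complex, when earlier results of these data were already known. Their UPF1 clusters are the rows of the deposited list that overlap the RefSeq GRCm38 locus of the gene by at least 1 base on its strand. The rule found 60 clusters out of 123349 in the list. They lay in 7 of the 9 genes, against 9480 protein-coding genes with a cluster in all. A cluster is a stretch of RNA in which reads of the UPF1 immunoprecipitate (IP) piled up.

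The data come from enhanced crosslinking and immunoprecipitation (eCLIP), which recovers the RNA fragments crosslinked to a protein and sets them against an input library made without the pull-down. The cells were cultured neural progenitor cells from mouse cortex of genotype Upf2fl/fl, and both libraries bear the label MOCK, whose meaning the labels do not give. There was 1 UPF1 IP and 1 input, with no replicate, so no test between conditions was possible and every interval below covers counting error only. A loxP-flanked Upf2 allele was shared by both libraries, and the labels name no Cre.

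Of 9 progenitor markers, 8 had a cluster on their strand and 6 an enriched one as defined below. Of all protein-coding loci with a known strand, 49.8% had a cluster, and 34.8% of those with a cluster had an enriched one. Some of these loci have a known strand only because they held 2 or more clusters. The highest log2 folds were 6.81 for Slc1a3, which takes up glutamate into radial glia, and 6.28 for Msi1, an RNA-binding protein. Vim, an intermediate filament, had 9 clusters and Pax6, a transcription factor, had 7, none of them enriched, with highest folds of 1.65 and 1.56. Hes1 has no strand in the tables used and was not counted. Of the 6 microglial and blood markers listed, Aif1, Cx3cr1, Ptprc, Hba-a1 and Hbb-bs had no cluster on their strand. Csf1r, like Hes1, has no known strand and was not counted.

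The exon junction complex is a protein mark that splicing leaves on mRNA just upstream of each exon boundary. EIF4A3, a DEAD-box RNA helicase, clamps the RNA, the heterodimer of MAGOH (or its close relative MAGOHB) and RBM8A (Y14) locks the clamp, and CASC3 (MLN51) joins in the cytoplasm. RNPS1, SAP18 and either ACIN1 or PNN form the peripheral ASAP and PSAP assemblies. A complex still on the mRNA after the ribosome has ended translation is a signal for nonsense-mediated decay, the pathway in which the helicase UPF1 acts. In the mouse cortex, reduced dosage of Eif4a3, Magoh or Rbm8a is known to cause microcephaly. The data here concern the mRNAs that encode these proteins as targets of UPF1, and not the position of the complex on other mRNAs.

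UPF1 was enriched on 4 of the 9 transcripts: Rbm8a and Casc3 of the core, and Rnps1 and Acin1 of the peripheral assemblies. A cluster counts as enriched at a log2 fold of IP over input of at least 3 with a −log10 p of at least 3, both as the authors deposited them. Among all protein-coding genes with a cluster, 34.8% had an enriched one, so 4 of the 7 genes with a cluster lay above that share, in a list too short to read more from. Of the 60 clusters, 18 were enriched (30.0%), against 11.7% of the clusters on protein-coding genes. The highest fold per gene had a median of 4.47 over the 7 genes and of 2.56 over the 9480 genes. Clusters of 1 gene share their RNA and are not independent, and 12 of the 18 enriched ones lay in Rbm8a and Casc3.

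The same 4 genes were called with the fold threshold at 2, where the share over protein-coding genes was 37.0%, at 4 (25.0%), and with a −log10 p of at least 5 (26.7%). The input count was 1 in 8 of the 18 enriched clusters, against 50.1% of those on protein-coding genes. With such clusters left uncalled, Rbm8a and Casc3 kept their call and Acin1 and Rnps1 lost it, and the share over protein-coding genes was 22.2%. The lower bound of the fold was at least 3 in 6 of the 18, against 23.5%, and these lay in Rbm8a and Acin1.

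**Figure D1:**
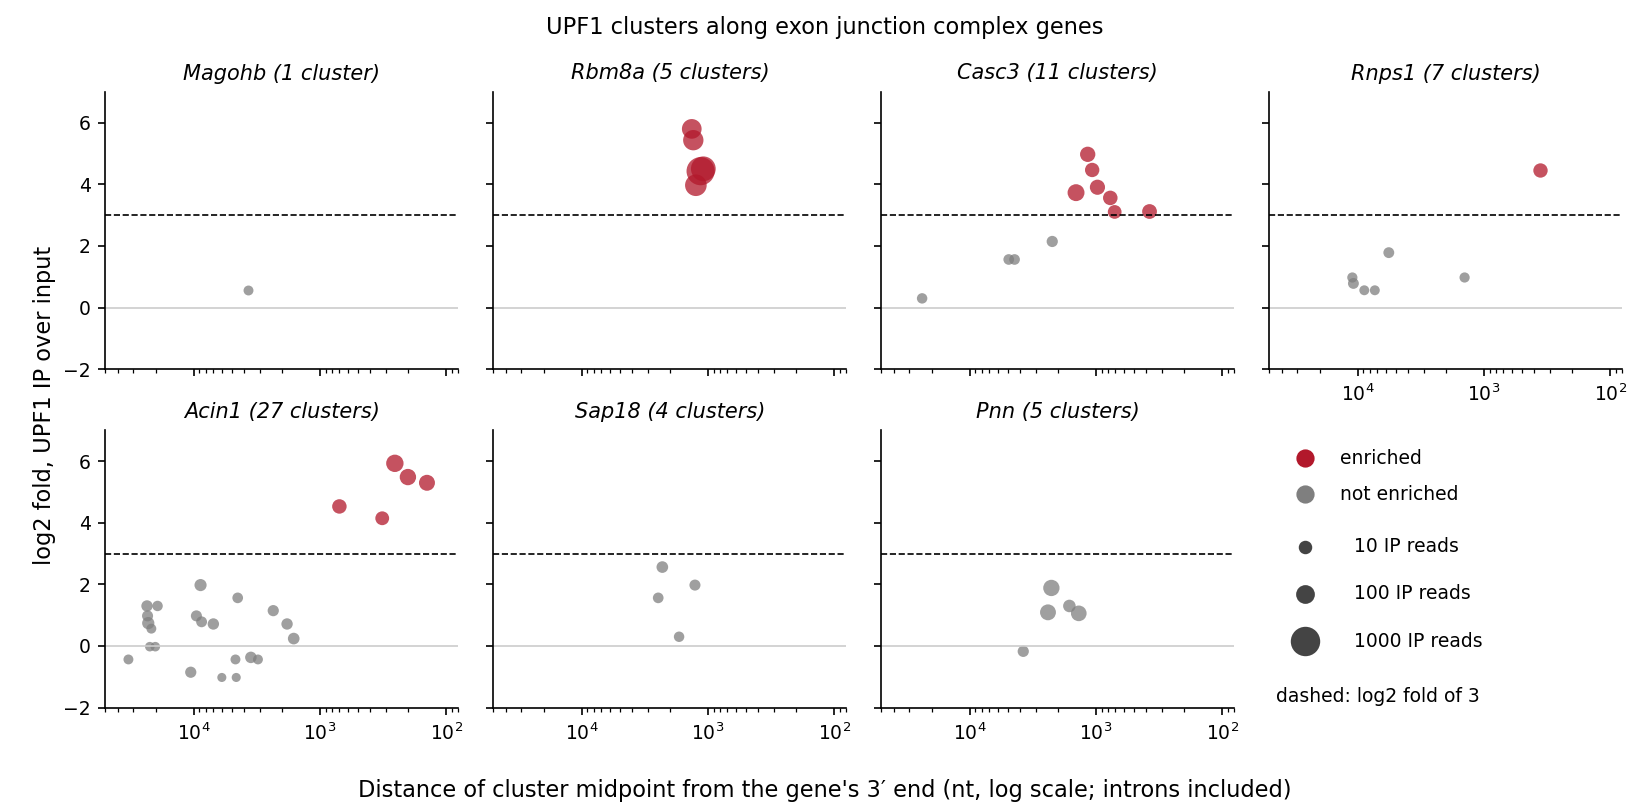
Each point is a UPF1 cluster of the named gene, placed by the distance of its midpoint from the 3′ end of the locus (nt, log scale, introns included) and by its log2 fold of IP over input; red points are enriched and the area grows with the IP reads. The enriched clusters of Rbm8a, Casc3, Rnps1 and Acin1 all lie within 1436 nt of the 3′ end, and no cluster of Magohb, Sap18 or Pnn reaches the dashed line at 3.

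Among the core genes, Rbm8a had the deepest signal. Rbm8a encodes Y14, the RNA-binding-domain protein that pairs with MAGOH, and its locus is short (chromosome 3, 96629928 to 96633791, plus strand, 3864 nt). All 5 of its clusters were enriched. From upstream to downstream their log2 folds were 5.80, 5.44, 3.97, 4.43 and 4.51. The read counts behind them, reconstructed from the steps of the deposited fold and p, were 227 IP reads against 2 of the input, 264 against 3, 351 against 11, 1139 against 26 and 647 against 14. The last pair of clusters stood at the cap of 400 in −log10 p, which 0.197% of all clusters reached, and their counts are the lowest whole numbers that give the fold.

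The 95% counting intervals of the 5 Rbm8a folds overlapped, from 3.93 to 8.86 for the highest and from 3.11 to 4.99 for the lowest. They therefore do not resolve an order among the clusters, but each of the 5 lower bounds exceeded 3. Such a cluster was found in 9.22% of protein-coding genes with a cluster. The 5 clusters filled 268 nt of a 317 nt stretch (96632430 to 96632746), 1087 to 1342 nt from the annotated 3′ end. No cluster lay anywhere else in the locus. Among protein-coding genes with 5 or more clusters, 2.07% had all of them enriched. Merging touching clusters left 2 in Rbm8a, so its place among those genes rests on how the clusters were split.

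Casc3 encodes the core factor that joins after export to the cytoplasm (chromosome 11, 98809808 to 98833807, plus strand, 24000 nt). It had 11 clusters, of which 7 were enriched. Those 7 covered 637 nt, spread over 1179 nt of the gene's end (98832306 to 98833484), and 6.14% of protein-coding genes with a cluster had more enriched nucleotides. Their folds, read towards the 3′ end, were 3.73, 4.98, 4.47, 3.91, 3.56, 3.11 and 3.12. The highest (64 IP reads against 1) had an interval of 2.45 to 10.30. The counts of the 7 ran from 35 to 108 IP reads with at most 4 input reads, and no lower bound reached 3.

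The other 4 clusters of Casc3 lay farther upstream and had folds of 0.30, 1.56, 1.56 and 2.15 from at most 9 IP reads. The lowest of these sat 235 nt from the 5′ end, where the locus overlaps the lncRNA Gm12359. Casc3 was thus covered broadly at its end, where Rbm8a carried 1 narrow and deep block.

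The other core genes gave next to no signal. Eif4a3, the helicase that clamps the RNA (chromosome 11, 119288363 to 119300043, minus strand), and Magoh (chromosome 4, 107879755 to 107887424, plus strand) had no cluster on either strand, nor within 1000 nt of either end. Of the protein-coding loci with a known strand, 49.8% had at least 1 cluster, so the lack of one is common. That share includes loci whose strand is known only from 2 or more clusters, so it is not a plain background. Magohb (chromosome 6, 131284389 to 131293244, minus strand) had 1 cluster of 57 nt, 3709 nt from its 3′ end. It held 3 IP reads against 1, a log2 fold of 0.56 with an interval of -3.08 to 6.27, which leaves its fold unresolved. Without an expression level in the deposited list, unbound RNA and scarce RNA cannot be told apart for these 3 genes. Magoh and Magohb encode near-identical proteins and Eif4a3 has the copies Eif4a3l1 and Eif4a3l2, so reads may have been lost to or shared with a copy, which was not tested.

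In the peripheral assemblies, Acin1 reached the highest fold of the 9 genes. It encodes acinus, the scaffold of ASAP, in the longest locus of the list (chromosome 14, 54642161 to 54686965, minus strand, 44805 nt). Of its 27 clusters 5 were enriched, and these were the 5 nearest the 3′ end, at 701, 321, 255, 201 and 142 nt from it (54642263 to 54642922). In that order their folds were 4.53, 4.15, 5.93, 5.48 and 5.30, from 47, 36, 124, 91 and 80 IP reads, each against an input count of 1. An input count of 1 may also stand for no read at all. The cluster with 124 reads had an interval of 3.43 to 11.25, and it was the only one of Acin1 whose lower bound exceeded 3.

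The remaining 22 Acin1 clusters had folds from -1.02 to 1.98, with a median of 0.64. Those with a fold above 0 held at most 17 IP reads. Those at or below 0 have only the lowest whole-number pair, so their depth is not known. The nearest of them lay 1612 nt from the 3′ end. RefSeq lists 4 starts for Acin1, 2 at the outer 5′ end and 2 inside the locus (54653701 and 54653685). Downstream of every start lay 19 clusters, including the 5 enriched ones, and 8 lay upstream of the inner starts, with a highest fold of 1.30. Among the 19 were 4 unenriched clusters that lay opposite the lncRNA 4930579G18Rik, which runs on the plus strand.

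Rnps1, which encodes an SR-related splicing activator shared by both assemblies (chromosome 17, 24414646 to 24425898, plus strand, 11253 nt), had 7 clusters and 1 enriched. That cluster of 111 nt (24425482 to 24425592) lay 361 nt from the 3′ end, with a fold of 4.47 from 45 IP reads against 1 (interval 1.92 to 9.80). The other 6 had folds from 0.56 to 1.78 and at most 7 IP reads. Of these, 2 lay near the 5′ end, 251 and 461 nt from it, with folds of 0.98 and 0.78. The call for Rnps1 thus rests on a single cluster whose input count is 1.

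Sap18 and Pnn were not enriched, and their folds were measured with very different precision. Sap18 encodes a ubiquitin-fold protein of both assemblies (chromosome 14, 57798189 to 57804980, plus strand). Its 4 clusters had folds of 1.56, 2.56, 0.30 and 1.98 towards the 3′ end, from 6, 12, 5 and 8 IP reads. With an input count of 1, at least 24 IP reads are needed to pass both thresholds. No Sap18 cluster held that many, and the interval of its highest fold ran from -0.20 to 7.98. That interval holds 3, so the counts do not place the fold of Sap18 above or below the limit.

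Pnn encodes pinin, which takes the place of acinus in PSAP (chromosome 12, 59066919 to 59074017, plus strand). Its 5 clusters had folds of -0.18, 1.09, 1.88, 1.30 and 1.06 towards the 3′ end. The read counts were 9 against 5, 78 against 18, 90 against 12, 20 against 4 and 72 against 17. The first of these pairs is only the lowest whole-number pair that gives the fold. The highest, with a −log10 p of 5.06, passed the p threshold and not that on the fold, and its interval of 1.01 to 2.89 ended below 3. Pnn was thus above input in its deepest cluster, at a fold measured to lie under the limit used here.

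**Figure D2:**
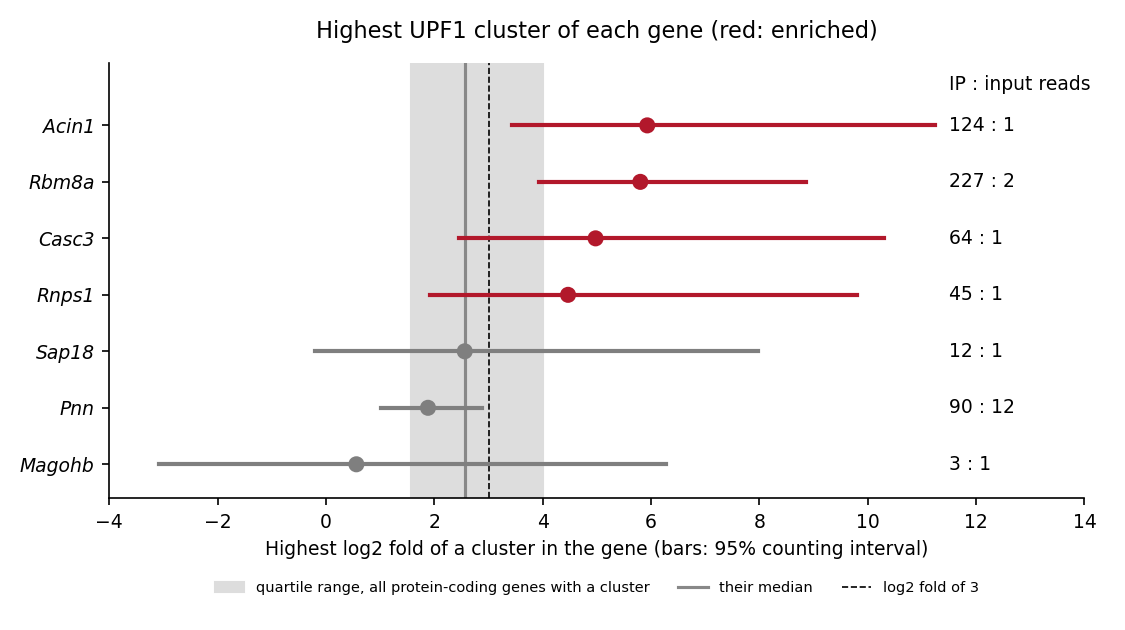
The highest log2 fold of IP over input among the clusters of each gene is shown as a point, with its 95% counting interval as a bar and the reads behind it at the right; the grey band is the quartile range over all 9480 protein-coding genes with a cluster. Acin1, Rbm8a, Casc3 and Rnps1 (red, enriched) lie between 4.47 and 5.93, and the bar of Pnn ends below the dashed line at 3 while that of Sap18 crosses it.

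Placed among all protein-coding genes with a cluster, 3.60% had a higher highest fold than Acin1 and 4.51% than Rbm8a. The figures were 12.1% for Casc3, 18.1% for Rnps1, 49.3% for Sap18, 65.0% for Pnn and 89.7% for Magohb. The intervals of Acin1, Rbm8a, Casc3 and Rnps1 overlapped, so their order is not resolved. The interval of Pnn did not overlap those of Acin1 and Rbm8a, and it overlapped those of Casc3 and Rnps1.

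A comparison over whole genes used the reads summed over all clusters, enriched or not. As reconstructed, Rbm8a and Pnn had the same input total of 56 reads. Against it the IP gave 2628 reads in Rbm8a and 269 in Pnn. Both sums, and that of Acin1 below, are minimums. They include clusters at the cap, or with a fold at or below 0, that have only the lowest whole-number pair. The equality of the input totals is therefore not a measured one. For Rbm8a and Pnn the log2 folds of the sums were 4.53 (interval 4.15 to 4.94) and 1.24 (0.82 to 1.68). Casc3 had 440 against 20 reads (3.43, interval 2.79 to 4.16) and Acin1 534 against 61 (2.11, interval 1.72 to 2.51). Rnps1 had 73 against 8 (2.17, interval 1.11 to 3.43) and Sap18 31 against 5 (1.61, interval 0.23 to 3.33). On this scale the median protein-coding gene stood at 1.32, with quartiles of 0.64 and 2.38. The summed folds of Rbm8a and Casc3 lay above the upper quartile, and those of Acin1 and Rnps1 between the median and the upper quartile. The clusters behind the sums covered 268 nt in Rbm8a, 568 nt in Pnn, 800 nt in Casc3 and 1877 nt in Acin1. A read that spans touching clusters may be counted in each, so these intervals are likely too narrow.

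**Figure D3:**
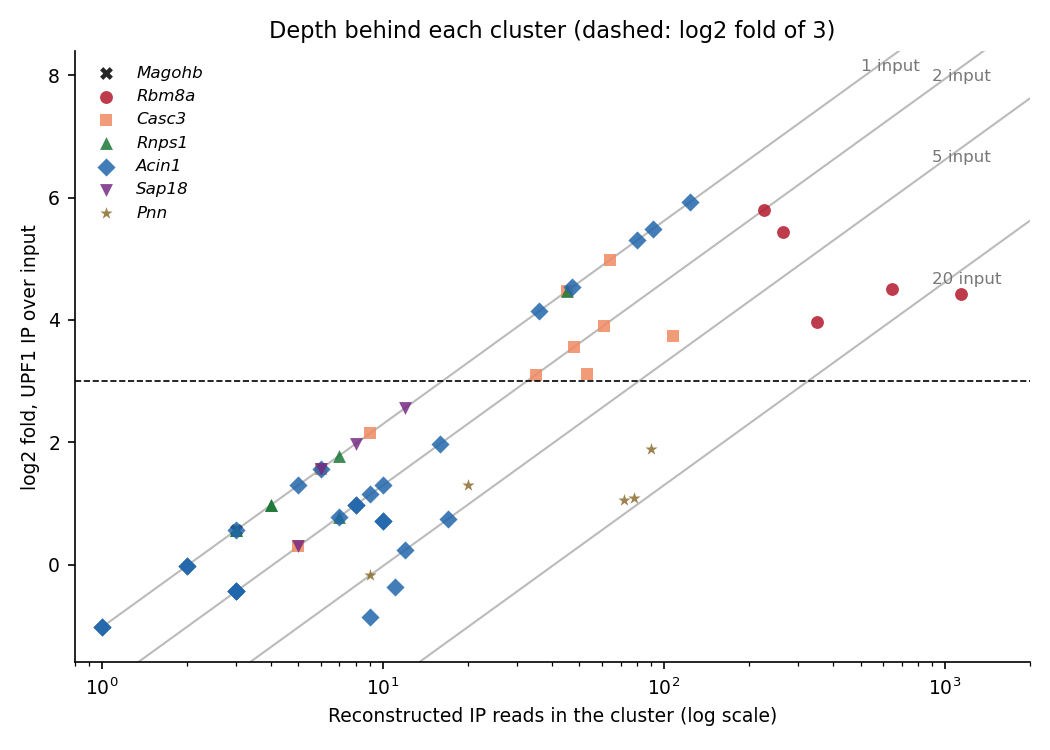
Each point is a cluster, placed by its reconstructed IP reads (log scale) and its log2 fold of IP over input; grey lines join clusters with 1, 2, 5 or 20 input reads. The Acin1 points above the dashed line at 3 all lie on the line of 1 input read. Rbm8a reaches at least 1139 IP reads and 26 input reads, the lowest whole numbers for a capped cluster.

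The enriched clusters lay near the 3′ ends. Within 2000 nt of the 3′ end, 18 of 25 clusters of the 9 genes were enriched, and farther inside none of 35 was. A count of 0 allows a share of up to 8.57% if clusters are taken as independent, which they are not: 20 of the 35 lie in Acin1. The same shares over all protein-coding genes were 37.7% and 5.03%. The 18 enriched clusters lay 142 to 1436 nt from the end, with a median of 871 nt, and the median for enriched clusters of all protein-coding genes was 1356 nt. Distances are genomic and include introns, and whether a cluster lies in an exon or in the untranslated region was not analysed here.

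In Acin1 the reads summed over the 7 clusters within 2000 nt gave a log2 fold of 3.92 (400 IP reads against 13, interval 3.13 to 4.84). The 20 clusters farther inside gave 0.46 (134 against 48, interval -0.03 to 0.96), so the intervals did not overlap. Those of the 20 with a fold at or below 0 have only the lowest whole-number pair. The counts of 134 and 48 are thus minimums, and larger counts in those clusters would lower the fold of 0.46. In Casc3 the corresponding folds were 3.76 (414 against 15, interval 3.02 to 4.61) and 1.35 (26 against 5, interval -0.05 to 3.09), whose intervals overlapped slightly. Rnps1 showed 3.59 (49 against 2, interval 1.66 to 6.68) and 0.98 (24 against 6, interval -0.35 to 2.56), which overlapped. In Pnn the fold was 1.11 near the end (92 against 21, interval 0.41 to 1.87) and 1.31 farther inside (177 against 35, interval 0.79 to 1.88). As reconstructed, Pnn gave no sign of a higher fold at the end. Its inner sum is also a minimum, since the cluster at -0.18 has only the lowest whole-number pair. For Sap18, 13 against 3 reads near the end and 18 against 2 farther inside left the difference unresolved. The limit of 2000 nt was chosen with results known, touching clusters may share reads and input counts of 1 may stand for no read, so these intervals are likely too narrow and the separation in Acin1 is a description of these 2 libraries.

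**Figure D4:**
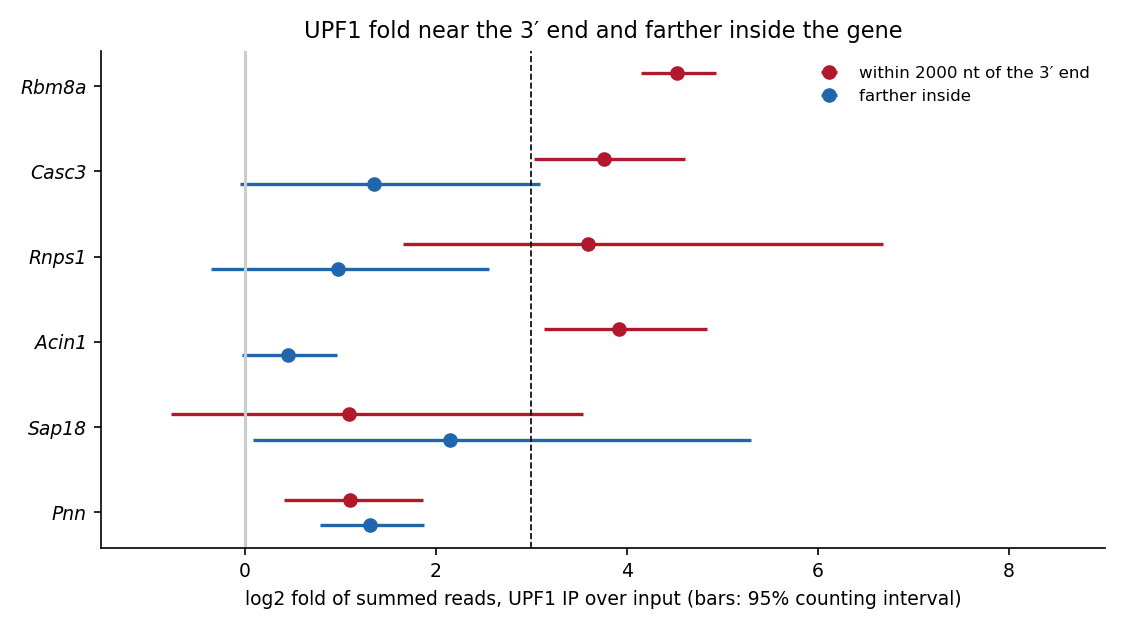
For each gene, the log2 fold of IP over input from the reads summed over clusters within 2000 nt of the 3′ end (red) and over clusters farther inside (blue), with 95% counting intervals as bars. The red and blue bars of Acin1 are separate, those of Pnn lie together below 2, and Rbm8a has no cluster farther inside. The read sums behind the blue bars of Acin1 and Pnn and the red bar of Rbm8a are minimums.

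Of the 6 paralogs of the members, 2 had a cluster on their strand and 1 an enriched one. Among all protein-coding genes with a cluster, 34.8% had an enriched one and the median highest fold was 2.56. Eif4a1, the cytoplasmic initiation helicase related to Eif4a3, had 6 clusters with a highest fold of 3.37 from 21 reads against 1, below the reads needed for the p threshold. Eif4a2, its close relative, had 16 clusters and 1 enriched, with a highest fold of 4.06 from 34 against 1. The copy Eif4a3l1 had no cluster. Eif4a3l2, Rbm8a2 and Sap18b have no known strand and were not counted.

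Genes that load or remove the complex or export mRNA with it had an enriched cluster in 6 of the 16 with a cluster (20 listed). Their median highest fold was 2.83. Both figures were near those over all protein-coding genes with a cluster, 34.8% and 2.56. The highest were Poldip3, which binds mRNA with the complex, at 5.77 (interval 3.26 to 11.09) with 4 of 8 clusters enriched, and Ncbp2, the small subunit of the nuclear cap-binding complex, at 5.69 (interval 3.18 to 11.01) with 5 of 7. Zc3h11a, an export factor, had no enriched cluster among 30 (highest fold 2.98), and Srrm1, a splicing coactivator, none among 16 (highest fold 2.68). Cwc22, which brings EIF4A3 to the spliceosome, reached 0.56 over 2 clusters, and Pym1, which takes the complex apart, 2.78 in its only cluster.

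Among the UPF and SMG factors that read the mark, 4 of the 10 with a cluster (11 listed) had an enriched one. Their median highest fold was 2.80. The same figures over all protein-coding genes with a cluster, 34.8% and 2.56, were not far from these. Upf1 itself reached 5.37 with 5 of 6 clusters enriched. Smg6, an endonuclease of the pathway, reached 5.32 with 6 of 32, and all 6 also lay inside the locus Hic1, so they cannot be given to Smg6 with certainty. Smg1, which phosphorylates UPF1, had no enriched cluster among 31 (highest fold 2.93). Upf3b, which binds the exon junction complex directly, had none among 13 (highest fold 1.44). Neither list was tested against the exon junction complex genes, and all 3 spread over folds from below 2 to above 5.

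**Figure D5:**
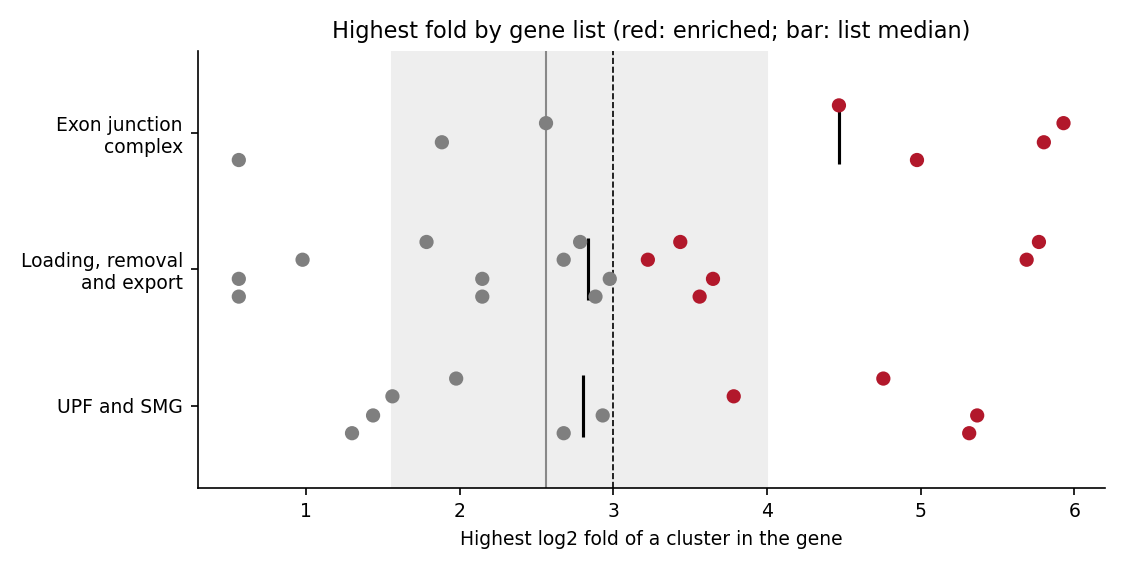
The highest log2 fold of IP over input of each gene with a cluster is plotted for the exon junction complex genes, their loading, removal and export partners and the UPF and SMG factors; red genes have an enriched cluster, black bars are list medians and the grey band is the quartile range of all protein-coding genes. The medians are 4.47, 2.83 and 2.80, and each list holds genes on both sides of the dashed line at 3.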

How the data were processed

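One UPF1 immunoprecipitate was compared with 1 input from the same kind of cells. Tools listed in the submitters' processing notes are cutadapt, UMI-tools and STAR, with build mm10. How clusters were called and the fold computed is not given in the sources used here. A log2 fold and a −log10 p for each cluster were deposited by the authors. Both units were read from the values and the customary column order, since no header names them. The deposited −log10 p is capped at 400 and is 0 where the fold is at or below 0.

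Clusters were joined to RefSeq GRCm38.p6 loci by 1 base of overlap on the gene's strand. The strand came from the RefSeq promoter table for 6 members. For Rbm8a, Casc3 and Rnps1 it was that of at least 80% of the locus's own clusters, so strand carries no information there. Other loci missing from the promoter table got a strand the same way if they held 2 or more clusters. Those without a cluster did not enter the share of 49.8%. Another 425 protein-coding loci with a cluster had no strand and were left out.

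Read counts were reconstructed by taking the commonest fold as 3 IP reads against 1, which puts the IP at 2.03 times the input depth. With that scale, 99.9% of clusters with a fold above 0 and below the cap matched whole counts. A match needed a −log10 p within 0.05 or 1% of the deposited one. It was computed by the exact binomial where a side held under 5 reads and otherwise by chi-square, continuity corrected. On simulated counts 99.6% of 2000 pairs were recovered. Of the 60 member clusters, 48 matched, and the other 12 (10 at or below 0, 2 at the cap) have the lowest whole-number pair. Intervals are exact Clopper-Pearson 95% intervals. The file gives no library totals.

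Members, gene lists and the limit of 2000 nt were chosen with earlier results of these data known. All 9 members and all paralogs are named. Of each other list with a cluster, the text names the 2 genes with the highest enriched fold and the 2 with the most clusters and none enriched. Cwc22 and Pym1 were added for their role, after their values were seen. Python 3.11.15, pandas 2.3.3, NumPy 2.4.6 and SciPy 1.17.1 were used. 1 gene of the UPF and SMG list is not reported here. No genome sequence was used here.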

Additional observations from a re-analysis of the deposited data

How the results depend on the processing

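Rbm8a, Casc3, Rnps1 and Acin1 kept an enriched cluster with a fold threshold of 2 or 4, a −log10 p threshold of 5, whole clusters only, clusters in 1 locus only, either strand, touching clusters merged and loci extended by 1000 nt at the 3′ end. With clusters of input count 1 left uncalled, 2 members stayed (Rbm8a and Casc3) with 10 enriched clusters, and the highest fold was 1.98 for Acin1 and 0.78 for Rnps1. Merging touching clusters also gave 10 enriched clusters, since it joins neighbours. An alternative chosen after seeing the data, a lower bound of the fold of at least 3, left 6 clusters in 2 members (Rbm8a and Acin1). Only Rbm8a passed under all of these. No other highest fold left its counting interval. No paired analysis was possible because there is 1 library of each kind. Magohb and Sap18 had at most 3 and 12 IP reads in a cluster, and the counting intervals of their highest folds hold both 0 and 3.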
